A study of Oryza sativa with 8 samples.

Results

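Large topologically associating domains (TADs), those of 300 kb or more, were taken from the domain list of each of 8 rice Hi-C libraries. A TAD counted as large if it was outermost, which means that no other TAD of the same list contained it, and if it was at least 300 kb long. These rules kept 1737 of the 80866 TADs of all lists, and 23555 outermost TADs fell under the size limit. Members were thus chosen by size and outermost level, so their number and size are given as a description with no test.

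Hi-C ligates and sequences pairs of DNA fragments that lie near each other in the nucleus. The libraries came from the aerial parts of 3-week-old seedlings of the japonica rice Nipponbare (Nip) and of the indica rice 93-11. Heat stress (HS) was 45 °C for 36 h, given together with high humidity and with less light than during growth, and whether the normal seedlings had that light and humidity was not stated. The groups were Nip HS, Nip normal, 93-11 HS and 93-11 normal, with 2 biological replicates each. The effect of heat and that of light or humidity cannot be told apart here.

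TADs are stretches of chromatin whose parts contact each other more than they contact their neighbours, and smaller TADs often nest inside larger ones. On a larger scale, chromatin falls into an A compartment, which is open and rich in active genes, and a B compartment, which is compact. In rice, as in many plants, much of the B compartment lies around the centromeres, where genes are sparse and repeats are dense. The compartment was read here from a deposited score, PC1, the leading principal component of the contact map in each 50-kb bin. Bins above 0 were called A and the others B.

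Large TADs were several times fewer after HS in both cultivars. The lists held 66 and 52 large TADs in Nip HS, against 323 and 370 in Nip normal. In 93-11, they held 97 and 76 in HS, against 397 and 356 in normal libraries. Every HS list held fewer than every normal list of its cultivar. The means were 59 ± 9.90 in Nip HS and 346.5 ± 33.2 in Nip normal (SD, n = 2 each), a ratio of 0.170. In 93-11, they were 86.5 ± 14.8 in HS and 376.5 ± 29.0 in normal libraries (SD, n = 2 each), a ratio of 0.230. The number of all outermost TADs moved the other way. It was 4106 and 4089 in Nip HS, against 2495 and 2345 in Nip normal, and 3713 and 3922 in 93-11 HS, against 2245 and 2377 in 93-11 normal.

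The part of the genome inside large TADs shrank in the same way. It was 6.88% and 5.38% in Nip HS, against 35.9% and 41.9% in Nip normal. In 93-11 it was 9.86% and 7.72% in HS, against 43.1% and 37.9% in normal libraries. Outermost TADs of any size covered 88.4% to 91.3% of the genome in the HS libraries and 97.7% to 98.1% in the normal libraries, a smaller gap than that in large TADs.

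**Figure D1:**
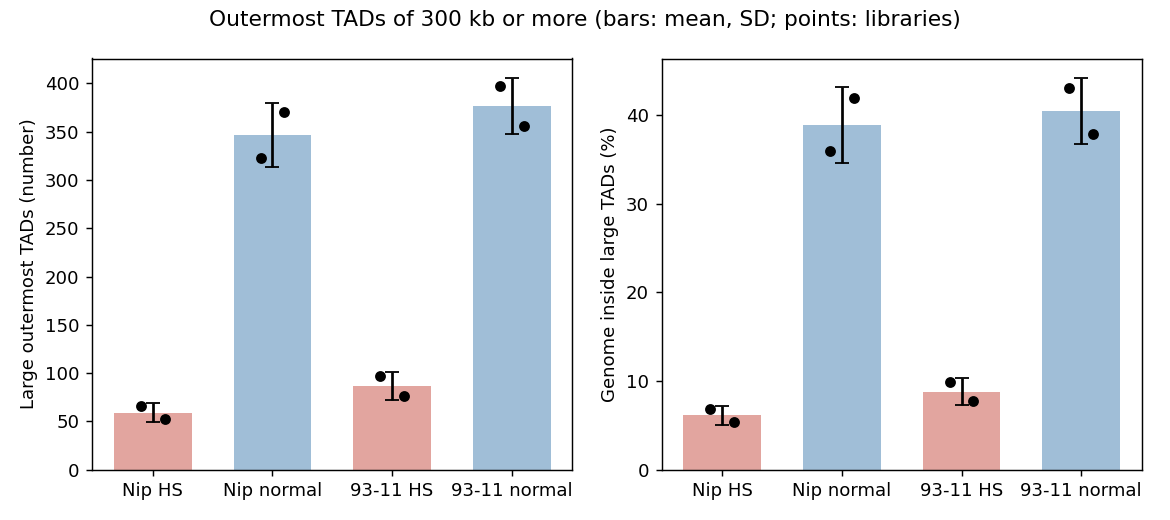
Number of outermost TADs of 300 kb or more (left) and percent of the genome inside them (right) in each group. Bars are means, error bars are SDs of 2 libraries and points are libraries; every HS library holds fewer than 100 large TADs and every normal library holds 323 or more.

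The large TADs that were present after HS were only slightly shorter than those of normal libraries. Their median length was 357.5 and 362.5 kb in Nip HS, against 385 and 400 kb in Nip normal, and 365 and 370 kb in 93-11 HS, against 395 and 390 kb in 93-11 normal. The longest reached 615 and 605 kb in Nip HS and 620 kb in both Nip normal libraries, and exactly 645 kb in all 4 lists of 93-11. Whether the caller set an upper limit on size was not given in the sources used here. Domains of 500 kb or more numbered 6 and 6 in Nip HS, against 68 and 90 in Nip normal, and 17 and 11 in 93-11 HS, against 89 and 72 in 93-11 normal.

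At the size limit itself, domains of exactly 300 kb, just inside, numbered 4 and 2 in Nip HS and 14 and 6 in Nip normal, and 8 and 1 in 93-11 HS and 4 and 11 in 93-11 normal. Domains just outside, shorter by 1 step of the 5-kb grid, numbered 4 and 2 in Nip HS and 17 and 7 in Nip normal, and 8 and 11 in 93-11 HS and 16 and 17 in 93-11 normal. Contacts where a large TAD directly touched another were also counted. There were 0 and 0 such contacts in Nip HS, against 39 and 54 in Nip normal, and 1 and 1 in 93-11 HS, against 60 and 33 in 93-11 normal.

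Large TADs lay on all 12 chromosomes of every normal library, with 21 to 40 on a chromosome in Nip and 21 to 47 in 93-11. On each of the 12 chromosomes of both cultivars, both HS lists held fewer than either normal list. The HS lists were uneven, and their replicates favoured different chromosomes. In Nip HS 1, 22 of the 66 large TADs lay on chromosome 11 and 14 on chromosome 12, where Nip HS 2 had 4 and 1. Chromosome 10 led in Nip HS 2 with 14, and there Nip HS 1 had 9. Chromosomes 3 and 8 held none in Nip HS 1, and 2 and 3 in Nip HS 2.

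In 93-11 HS 1, 26 of the 97 large TADs lay on chromosome 10 and 14 on chromosome 8, where 93-11 HS 2 had 6 and 1. In 93-11 HS 2, 16 lay on chromosome 9 and 12 on chromosome 6, where 93-11 HS 1 had 6 and 9. Chromosome 12 of 93-11 held 0 and 1 in HS libraries, against 27 and 21 in normal libraries. The 2 leading chromosomes of a library held 54.5% and 40.4% of its large TADs in Nip HS, against 18.6% and 21.1% in Nip normal, and 41.2% and 36.8% in 93-11 HS, against 21.2% and 22.8% in 93-11 normal. The widest gap between replicates on a chromosome was 18 in Nip HS and 10 in Nip normal, and 20 in 93-11 HS and 11 in 93-11 normal.

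The number of outermost TADs per Mb is given for a few chromosomes as a description. Outermost TADs cover most of the genome, so this number is tied to their length, which chose the members. On chromosome 11 of Nip it was 6.57 and 10.5 per Mb in HS libraries, against 5.46 and 4.87 per Mb in normal libraries. The lower HS value was that of the replicate with 22 large TADs. On chromosome 10 of 93-11 it was 5.28 and 8.34 per Mb in HS libraries, against 4.46 and 4.93 per Mb in normal libraries, and again the lower value went with the 26 large TADs of replicate 1. On chromosome 1 of Nip, with 2 and 1 large TADs after HS, it was 13.2 and 13.1 per Mb in HS libraries, against 7.31 and 7.08 per Mb in normal libraries. On chromosome 9 of Nip it was 11.4 per Mb in both HS libraries, which had 4 and 7 large TADs there. The part of this density in the spread between HS replicates was not tested.

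**Figure D2:**
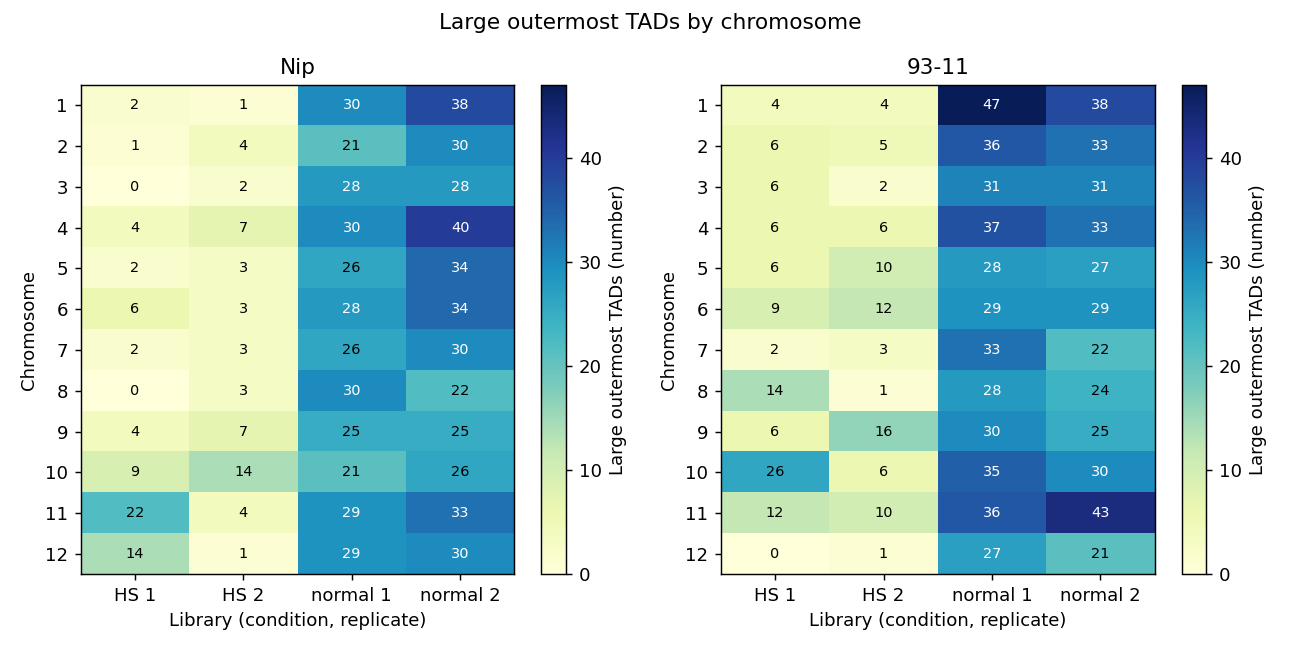
Number of large outermost TADs on each of the 12 chromosomes (rows) in each library (columns) of Nip (left) and 93-11 (right). Both normal columns are filled evenly with 21 to 47 per chromosome, whereas the HS columns run between 0 and 26 and their replicates peak on different chromosomes.

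Large TADs were mostly B and poor in genes. The midpoint lay in B for 73.8% and 93.5% of the large TADs of Nip HS, against 66.4% and 63.8% in Nip normal. In 93-11 these shares were 68.3% and 65.7% in HS, against 62.9% and 64.7% in normal libraries. They rest on few domains after HS, and the exact 95% Clopper-Pearson interval, which covers counting error only, ran from 60.9% to 84.2% in Nip HS 1 (45 of 61 scored midpoints) and from 82.1% to 98.6% in Nip HS 2 (43 of 46). Over all scored bins, A and B were close to equal in every library.

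Within a library, large TADs could be compared with all smaller outermost TADs, since compartment and genes played no part in the choice by size. The B share was higher in large TADs in 8 of 8 libraries, by 27.4 percentage points on average and by 19.1 to 48.1 points in single libraries. The exact two-sided sign-flip permutation test over the 8 libraries gave p = 0.0078, the smallest it can give, and an adjusted p of 0.020 over the 13 tests of this kind. Gene density was lower in large TADs in 8 of 8 libraries, with a mean difference of -1.53 genes per bin (exact permutation p = 0.0078, adjusted p = 0.020). Bins without a PC1 score, which the files mark as missing, were more frequent in large TADs in 8 of 8 libraries, by 3.93 percentage points (exact permutation p = 0.0078, adjusted p = 0.020). Libraries of a cultivar share a genome, so these p-values measure the spread between libraries and not between genomes.

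The contrast with the next smaller class, outermost TADs from 150 kb up to the limit of 300 kb, was of the same direction. The B share was higher in large TADs by 18.9 points on average, by 19.4 points in HS libraries and 18.4 points in normal libraries (higher in 8 of 8 libraries, exact permutation p = 0.0078, adjusted p = 0.020). Gene density was lower by an average difference of -1.18 genes per bin (lower in 8 of 8 libraries, exact permutation p = 0.0078, adjusted p = 0.020). Large TADs also lay slightly farther from the ends of the chromosomes, with a median distance of 8.57 and 8.68 Mb in Nip HS and 8.34 and 8.35 Mb in Nip normal, and 9.16 and 9.13 Mb in 93-11 HS and 8.66 and 8.85 Mb in 93-11 normal. The medians of all other outermost TADs ran from 7.09 to 7.99 Mb.

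Large TADs of HS libraries were poorer in genes than those of normal libraries. They held 4.10 and 3.77 genes per bin in Nip HS, against 4.70 and 4.93 in Nip normal, and 3.58 and 3.24 in 93-11 HS, against 4.51 and 4.40 in 93-11 normal. The groups did not overlap in either cultivar. Their mean difference was -0.960 genes per bin over both cultivars. The exact permutation test over the 36 relabellings within cultivars gave p = 0.056, which is the smallest this design allows, and an adjusted p of 0.093 over 5 quantities. The B share was higher after HS by 10.9 points on average, by 18.5 points in Nip and 3.19 points in 93-11, with the same exact p of 0.056 and adjusted p of 0.093. With Nip HS 2 left out, the difference in B share over both cultivars was 5.93 points, and with the size limit at 400 kb it was 5.44 points (exact permutation p = 0.78), so this value leaned on that library and on the limit. Genes per bin are counts of one annotation per cultivar and are the same in all libraries of a cultivar, so a difference in gene density says where the large TADs lay.

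The share of bins without a score moved along with these. Within large TADs it was 7.14% and 7.71% in Nip HS, against 6.28% and 5.80% in Nip normal, and 9.80% and 10.6% in 93-11 HS, against 6.28% and 6.99% in 93-11 normal. The mean difference was 2.49 points (exact permutation p = 0.056, adjusted p = 0.093). In the class from 150 kb up to 300 kb the share was 5.27% and 6.15% in Nip HS, against 4.22% and 3.81% in Nip normal. In 93-11 it was 4.27% and 4.72% in HS, against 3.72% and 3.94% in normal libraries. The part of unscored stretches in the calling of large TADs was not tested.

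**Figure D3:**
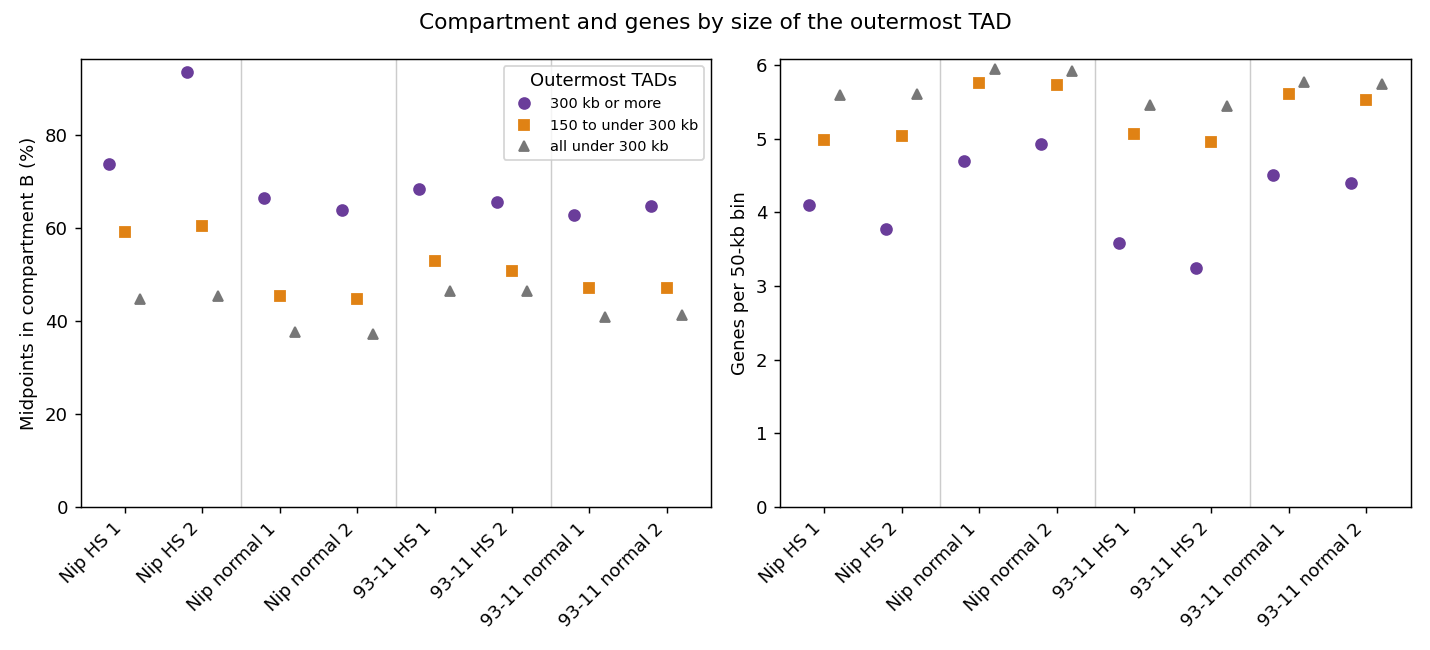
Percent of outermost TADs with the midpoint in compartment B (left) and genes per 50-kb bin (right) in the 8 libraries, for large TADs, those from 150 kb up to 300 kb and all under 300 kb. In each library the large TADs have the highest B share and the fewest genes per bin.

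Large TADs were richly nested in both conditions. A large TAD held on average 6.82 and 9.87 inner TADs in Nip HS, against 8.58 and 8.71 in Nip normal, and 7.45 and 8.57 in 93-11 HS, against 8.03 and 7.46 in 93-11 normal. Per 100 kb of domain this made 1.75 and 2.56 inner TADs in Nip HS, against 2.07 and 2.06 in Nip normal, and 1.89 and 2.17 in 93-11 HS, against 1.91 and 1.81 in 93-11 normal. Per 100 kb, the HS replicates of Nip lay on both sides of the normal values. In 93-11, HS 1 lay between the normal values and HS 2 above them. The mean difference of 0.132 was smaller than the gap between the HS replicates of either cultivar. It is given without a p-value, since size and nesting level chose the members. Few large TADs had no inner TAD, at most 3 in a library. A nesting of at least 4 levels inside the outermost TAD was found in 16.7% and 28.8% of large TADs in Nip HS, against 27.9% and 33.0% in Nip normal, and in 11.3% and 25.0% in 93-11 HS, against 30.0% and 25.0% in 93-11 normal.

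Set against outermost TADs from 150 kb up to 300 kb, the large TADs were less densely nested in all 4 HS libraries, by an average difference of -0.54 inner TADs per 100 kb, and slightly more densely nested in all 4 normal libraries, by 0.039 per 100 kb. Both differences are given as a description without a p-value, since both classes were set by size and level. The smaller class held 2.58, 2.83, 2.56 and 2.56 inner TADs per 100 kb in Nip HS 1, Nip HS 2, 93-11 HS 1 and 93-11 HS 2, against 2.00, 2.02, 1.87 and 1.79 in Nip normal 1, Nip normal 2, 93-11 normal 1 and 93-11 normal 2. The smaller class was thus the more densely nested after HS.

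A large TAD did not always lie in a single compartment. Bins of both signs occurred in 37.9% and 17.3% of the large TADs of Nip HS, against 24.8% and 25.4% in Nip normal, and in 32.0% and 25.0% in 93-11 HS, against 27.7% and 23.9% in 93-11 normal. Wholly A domains numbered 7 and 4 in Nip HS, against 81 and 103 in Nip normal, and 15 and 12 in 93-11 HS, against 107 and 91 in 93-11 normal. Wholly B domains numbered 34 and 39 in Nip HS, against 161 and 173 in Nip normal, and 51 and 45 in 93-11 HS, against 180 and 180 in 93-11 normal.

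The compartment score inside the large TADs of normal libraries was nearly the same in both conditions. In Nip, 1967 scored bins lay in a large TAD of both normal libraries, and their mean PC1 was -0.0186 and -0.0189 in HS libraries, against -0.0186 and -0.0186 in normal libraries. In 93-11, 2021 such bins averaged -0.0148 and -0.0149 in HS libraries, against -0.0159 and -0.0160 in normal libraries. The mean difference over both cultivars was 0.00051 (exact permutation p = 0.22). It changed sign, to -0.0043, once the median of each chromosome was taken off in each library (exact permutation p = 0.056). The SD of PC1 over these bins was 0.038 to 0.039 in every library. B took 71.5% and 71.9% of the bins in Nip HS, against 71.9% and 71.5% in Nip normal, and 65.7% and 65.5% in 93-11 HS, against 67.5% and 67.8% in 93-11 normal.

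Compartment switches were counted where both normal libraries shared a call and both HS libraries shared the opposite one. Of the 1967 bins of Nip, 22 (1.12%, 95% interval 0.702% to 1.69%) went from A to B and 21 (1.07%, 0.662% to 1.63%) from B to A, against 1.04% and 1.05% of all scored bins. Of the 2021 bins of 93-11, 11 (0.544%, 0.272% to 0.972%) went from A to B and 43 (2.13%, 1.54% to 2.86%) from B to A, against 0.793% and 1.71% of all scored bins. The intervals are Clopper-Pearson and treat bins as independent, which neighbouring bins are not. The share over the whole genome lay within each of the 4 intervals.

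The stretches that normal libraries gave as 1 large TAD were divided into several outermost TADs in the HS lists. A large TAD counted as recovered if it and an outermost TAD of the other list overlapped over at least 80% of the length of each. In Nip, 10.4% of the large TADs of a normal library were recovered in an HS list (9.73% to 11.5% over 4 pairs of lists), against 66.4% in the other normal list (61.4% and 71.5%). In 93-11, 11.8% were recovered in an HS list (9.57% to 13.5%), against 61.4% in the other normal list (58.2% and 64.6%). The mean difference was -52.8 points. Recovery of a large TAD needs a TAD of similar length in the other list, and HS lists hold few of these, so recovery and the counts and shares of the next 2 paragraphs follow in part from the sizes that chose the members. They are given as a description, without a p-value.

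The count of outermost TADs inside a large TAD of a normal library was 4.15 on average in the HS lists of Nip and 1.67 in the other normal list. In 93-11 it was 3.69 in the HS lists and 1.72 in the other normal list. The mean difference was 2.22. Of the large TADs of a Nip normal library, 57.9% to 62.4% held at least 4 outermost TADs of an HS list, against 4.33% and 8.11% for the other normal list. In 93-11 the shares were 43.8% to 54.4% for HS lists, against 8.82% and 5.62% for the other normal list. As many as 11 outermost TADs of an HS list lay inside a single large TAD, in both cultivars.

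No single HS domain took the place of the large TAD in most cases. The largest outermost TAD covered on average 45.8% of it in the HS lists of Nip, against 84.7% in the other normal list. In 93-11 it covered 49.9% in the HS lists, against 82.5% in the other normal list (mean difference -35.8 points). The outermost HS TADs inside had a median length of 60 to 65 kb in Nip and 70 to 75 kb in 93-11.

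The outer boundaries of large TADs were found again in HS lists more often than the whole domains, whereas in the other normal list whole domains were found more often. Both ends of a large TAD had a boundary of an outermost TAD within 5 kb in 30.4% of cases in the HS lists of Nip, against 36.3% in the other normal list. In 93-11 the shares were 18.9% in the HS lists and 27.0% in the other normal list. The mean difference was -6.97 points within 5 kb, -5.52 points at the same position and -3.09 points within 10 kb. It is given without a p-value, since the members were chosen by size and only boundaries of outermost TADs were matched. Boundaries were denser in HS lists, and 22.3% to 22.9% of all positions in Nip and 18.9% to 20.1% in 93-11 lay within 5 kb of one, against 10.8% to 11.6% and 10.0% to 10.6% in normal lists. The shares of recovered ends were not corrected for that, so whether ends were kept after HS was not tested.

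HS boundaries inside the large TADs partly fell on borders that the normal library already had at inner levels. In Nip, 35.6% to 37.7% of the HS boundaries at least 15 kb inside the ends lay within 5 kb of an inner boundary, where 19.9% to 20.0% of all positions in the large TADs did. In 93-11 it was 26.1% to 29.4% of the HS boundaries inside and 16.6% to 18.0% of the positions. For boundaries of the other normal list the shares were higher, 43.6% and 48.5% in Nip and 42.4% and 36.9% in 93-11. Of the outermost HS TADs inside the large TADs, 26.8% to 31.5% in Nip and 21.7% to 25.5% in 93-11 matched an inner TAD of the normal library at 80% overlap. For the outermost TADs of the other normal list, which were fewer and longer, the shares were 31.2% and 39.7% in Nip and 37.6% and 32.5% in 93-11.

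Outermost TADs from 150 kb up to 300 kb of normal libraries were divided as well. This comparison was added after the first results were known, and it is given without a p-value, since both classes were set by size. In Nip, 26.2% of them were recovered in an HS list, against 56.3% in the other normal list, and in 93-11, 24.1% were recovered in an HS list, against 51.5% in the other normal list. The HS minus normal difference in recovery was more negative for large TADs by -24.0 points. The number of outermost TADs per 100 kb inside large TADs was 0.991 in the HS lists of Nip, against 0.399 in the other normal list, and 0.885 in the HS lists of 93-11, against 0.413 in the other normal list. Inside the smaller domains it was 1.05 in the HS lists of Nip, against 0.609 in the other normal list, and 0.969 in the HS lists of 93-11, against 0.589 in the other normal list. Per length, outermost HS TADs were thus no denser inside large TADs than inside the smaller ones.

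**Figure D4:**
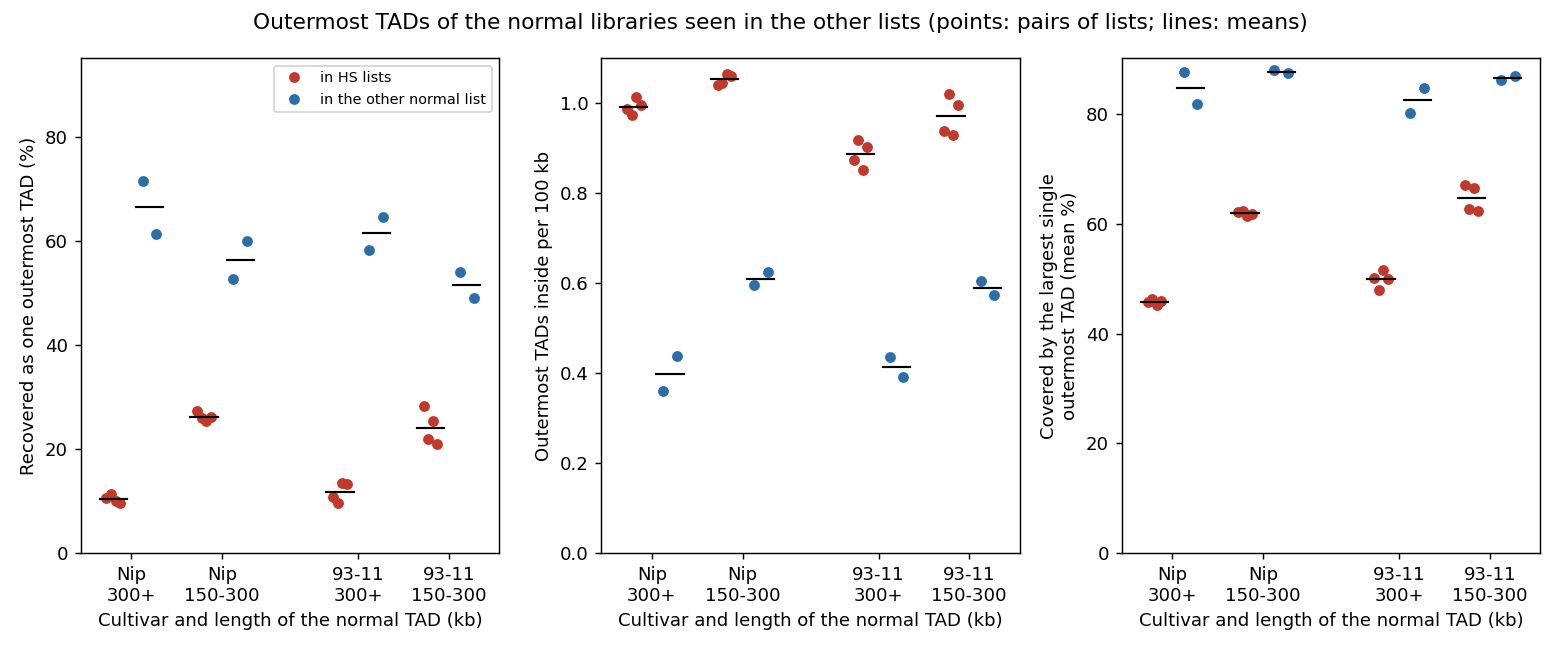
Outermost TADs of normal libraries, large or from 150 kb up to 300 kb, seen in the HS lists (red) and in the other normal list (blue). Panels give the percent recovered as 1 outermost TAD, the outermost TADs inside per 100 kb and the mean percent covered by the largest single outermost TAD; points are pairs of lists and lines are means, and the red and blue points of a class do not overlap in any panel.

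Seen from the other side, the large TADs of HS libraries were more often found in normal lists than in the other HS list. In Nip, 48.6% of them were recovered as an outermost TAD of a normal list (40.9% to 55.8% over 4 pairs), and 26.2% in the other HS list (19.7% and 32.7%). In 93-11, 41.2% were recovered in a normal list (36.8% to 48.7%), and 18.0% in the other HS list (17.5% and 18.4%). These values are a description, since the rule set how many large TADs each list had.

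Large TADs found in both normal libraries at 80% reciprocal overlap numbered 216 in Nip and 211 in 93-11, and 27 and 16 of these had the same start and end in both. Of the 216 in Nip, 15 were matched by an outermost TAD of both HS lists, 33 of 1 HS list and 168 (77.8%) of none. Of the 211 in 93-11, 16 were matched in both HS lists, 48 in 1 and 147 (69.7%) in none. In Nip, 4 of the 54 matched domains with a mean PC1 above 0 in both normal libraries were matched in an HS list, and 44 of the 161 with a mean PC1 at or below 0 were. In 93-11, 18 of 66 A domains and 46 of 145 B domains were. The 4 domains of A in Nip lay at chr3:2115001-2425000, chr6:6160001-6475000, chr10:30001-395000 and chr11:24960001-25325000, and each was matched in 1 HS list. No test compares these shares between compartments, since domains of a list are not replicates.

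Genes and mean PC1 of a matched domain were taken over the bins that both normal versions share, and the HS lists were set against the version of normal replicate 1, whose coordinates are given, except that a match to either version counted. The longest of the matched large TADs were poor in genes and B. In Nip the longest lay at chr12:6040001-6650000 in replicate 1 and chr12:6085001-6705000 in replicate 2, with 30 genes in 11 bins. Its mean PC1 was -0.031 and -0.033 in HS libraries, against -0.035 and -0.038 in normal libraries. It held 15 and 17 inner TADs in the normal lists, and 2 and 7 outermost TADs lay inside it in the HS lists. The next 4 in Nip were 600 to 615 kb long, at chr3:20055001-20665000, chr7:8245001-8860000, chr3:19205001-19810000 and chr6:8255001-8860000, with 18, 42, 19 and 44 genes. Each contained 4 to 8 outermost HS TADs. On chromosome 7 a single TAD of Nip HS 2, chr7:8270001-8770000, still covered 81.3% of the domain, whereas in Nip HS 1 the largest of 8 covered 19.5%.

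In 93-11 the longest was chr2:18755001-19390000 in replicate 1 and chr2:18785001-19430000 in replicate 2. Only 13 genes lay in its 12 bins, and 10 of the 12 bins had no PC1 score, so its compartment rests on the remaining bins. In 93-11 HS 1, 8 outermost TADs lay inside and the largest covered 6.30%, and in 93-11 HS 2 a TAD of 545 kb, chr2:18835001-19380000, covered 85.8%. The other long ones, chr8:8870001-9495000, chr10:9165001-9795000, chr5:15390001-16035000 and chr2:22065001-22680000, held 29, 19, 28 and 26 genes. The one on chromosome 8 was divided into 4 and 5 outermost TADs in HS libraries, and had a mean PC1 of -0.051 and -0.052 in HS libraries, against -0.051 and -0.051 in normal libraries.

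Some of the most divided large TADs of Nip kept their outer boundaries. In Nip, chr1:31825001-32365000, a domain of A with 82 genes in 11 bins, held 10 and 9 outermost TADs in HS libraries. A boundary lay within 5 kb of both its ends in both HS lists, and its mean PC1 was 0.036 and 0.036 in HS libraries, against 0.038 and 0.037 in normal libraries. At chr3:16830001-17425000, a domain of B with 46 genes, 6 and 11 outermost HS TADs lay inside and again both ends were kept in both HS lists. At chr1:12710001-13295000 there were 9 and 10, the largest covering 23.1% and 17.9%, and 1 of its 2 ends was kept in each HS list.

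The most divided large TADs of 93-11 were chr12:7630001-8245000, with 8 and 11 outermost HS TADs inside and 24 genes, chr1:38260001-38670000, with 9 and 8 and 48 genes, and chr2:28220001-28830000, with 10 and 6 and 77 genes. The first lay in B, with a mean PC1 of -0.038 and -0.039 in HS libraries, against -0.043 and -0.044 in normal libraries. The others lay in A. On chromosome 1 the mean PC1 was 0.041 and 0.041 in HS libraries, against 0.042 and 0.042 in normal libraries, and on chromosome 2 it was 0.041 and 0.040 in HS libraries, against 0.040 and 0.040 in normal libraries. The mean PC1 thus differed by little between conditions on chromosomes 1 and 2. On chromosome 12 the gap between conditions was larger than that between replicates. Of the 2 ends, 1 and 2 were kept in HS 1 and HS 2 on chromosome 12, and 1 and 0 on both chromosome 1 and chromosome 2. The domains of both cultivars were picked for many HS TADs inside, and ends kept were not corrected for the density of boundaries.

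The matched large TADs at the A end of the PC1 scale lay mostly on chromosome 9. In Nip these were chr9:16855001-17310000 with 58 genes, chr9:17745001-18060000 with 38 genes and chr9:11825001-12265000 with 57 genes. The first held 7 and 7 outermost HS TADs, and the domain at 17745001, called at the same position in both normal libraries, held 3 and 3. For the domain at 11825001 the mean PC1 was 0.036 and 0.037 in HS libraries, against 0.055 and 0.055 in normal libraries, a fall well above the gap between replicates at this domain, and 4 and 6 outermost HS TADs lay inside. In 93-11 the highest were chr9:18020001-18455000, chr9:20180001-20785000 and chr10:24080001-24490000, with 70, 87 and 59 genes. They held 3 and 3, 7 and 4, and 3 and 4 outermost TADs of HS 1 and HS 2.

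The matched large TADs at the B end lay on chromosomes 9 and 10 as well, at chr10:6710001-7290000, chr9:6325001-6735000 and chr10:9425001-10005000 in Nip, with 22, 26 and 51 genes, and at chr9:8500001-8815000, chr9:7585001-8080000 and chr9:9735001-10245000 in 93-11, with 13, 20 and 18 genes. Their mean PC1 lay between -0.058 and -0.054 in all libraries. Outermost HS TADs inside numbered 2 to 7 in Nip and 1 to 5 in 93-11. In 93-11 HS 2, 1 TAD, chr9:8500001-8885000, took the place of the first of these. PC1 is scaled within a chromosome, but the ranks at the A and B ends were taken over all chromosomes. Chromosomes 9 and 10 were the shortest, at 22.9 and 23.5 Mb in Nip and 24.3 and 25.5 Mb in 93-11. The part of this scaling in the ranks was not tested.

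Over all matched large TADs with a score, the HS minus normal difference of mean PC1 ran from -0.034 to 0.027 in Nip, with a median of -0.00075 over 215 domains, and from -0.017 to 0.035 in 93-11, with a median of -7.1e-05 over 211. It was at most 0.01 in size for 191 domains of Nip and 193 of 93-11. The side of 0 changed in both HS libraries against both normal libraries for 1 domain of Nip and 4 of 93-11. Among all scored single bins of the genome, 1.04% became B and 1.05% became A in Nip. In 93-11, 0.793% of such bins became B and 1.71% became A. A domain mean is not a single bin, and smaller outermost TADs were not counted in this way. Whether the counts within 0.01 or with a changed side set large TADs apart was thus not tested. The domains that changed side are named here although they were chosen after their values were seen. In Nip the domain was chr4:4505001-4850000, at 0.014 and 0.0081 in HS libraries, against -0.00071 and -0.0029 in normal libraries.

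In 93-11, chr11:11940001-12560000 had a mean PC1 of 0.0086 and 0.0084 in HS libraries, against -0.014 and -0.016 in normal libraries. At chr12:4775001-5325000 it was 0.0084 and 0.012 in HS libraries, against -0.012 and -0.014 in normal libraries. At chr10:11880001-12185000 it was 0.0082 and 0.00083 in HS libraries, against -0.0052 and -0.0032 in normal libraries. The domain chr1:7835001-8290000 moved the other way, at 0 and -0.0023 in HS libraries, against 0.0054 and 0.0039 in normal libraries. None of these 5 domains was recovered as an outermost TAD in an HS list, and 1 to 7 outermost HS TADs lay inside each.

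A small number of the matched large TADs had a matching outermost TAD in both HS lists too. The longest in Nip was chr11:12520001-13035000, 515 kb and 580 kb long in the normal lists, with 19 genes and a mean PC1 of -0.054 and -0.054 in HS libraries, against -0.050 and -0.049 in normal libraries. The domain chr9:5025001-5550000 was identical in both normal lists and shorter in the HS lists, at 475 kb and 450 kb, and both its ends had a boundary within 5 kb in each HS list. At chr11:8410001-8880000, TADs of 570 kb in Nip HS 1 and 425 kb in Nip HS 2 stood against 470 kb and 515 kb in the normal lists, and no HS boundary lay within 5 kb of either end of the normal 1 domain. In 93-11 the longest were chr2:26460001-27015000, chr11:17755001-18235000 and chr6:17475001-17930000, with 20, 13 and 24 genes. All 6 had a mean PC1 below 0 in every library.

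Large TADs shared by both HS libraries numbered 13 in Nip and 12 in 93-11. Of these, 6 and 7 were matched in both normal lists, and 10 and 11 in at least 1. The longest in Nip was chr11:12390001-12940000 in replicate 1 and chr11:12470001-13045000 in replicate 2, 550 kb and 575 kb long. In 93-11 it was chr10:7360001-7930000 and chr10:7410001-8055000, 570 kb and 645 kb long, with 16 genes. The 4 that no normal list matched, named after their values were seen, were chr4:15140001-15625000, chr4:15970001-16360000 and chr11:10195001-10505000 in Nip and chr11:27915001-28290000 in 93-11. The first of them had the same start and end in both HS lists, 33 genes, and a mean PC1 of -0.044 and -0.042 in HS libraries, against -0.040 and -0.040 in normal libraries.

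**Figure D5:**
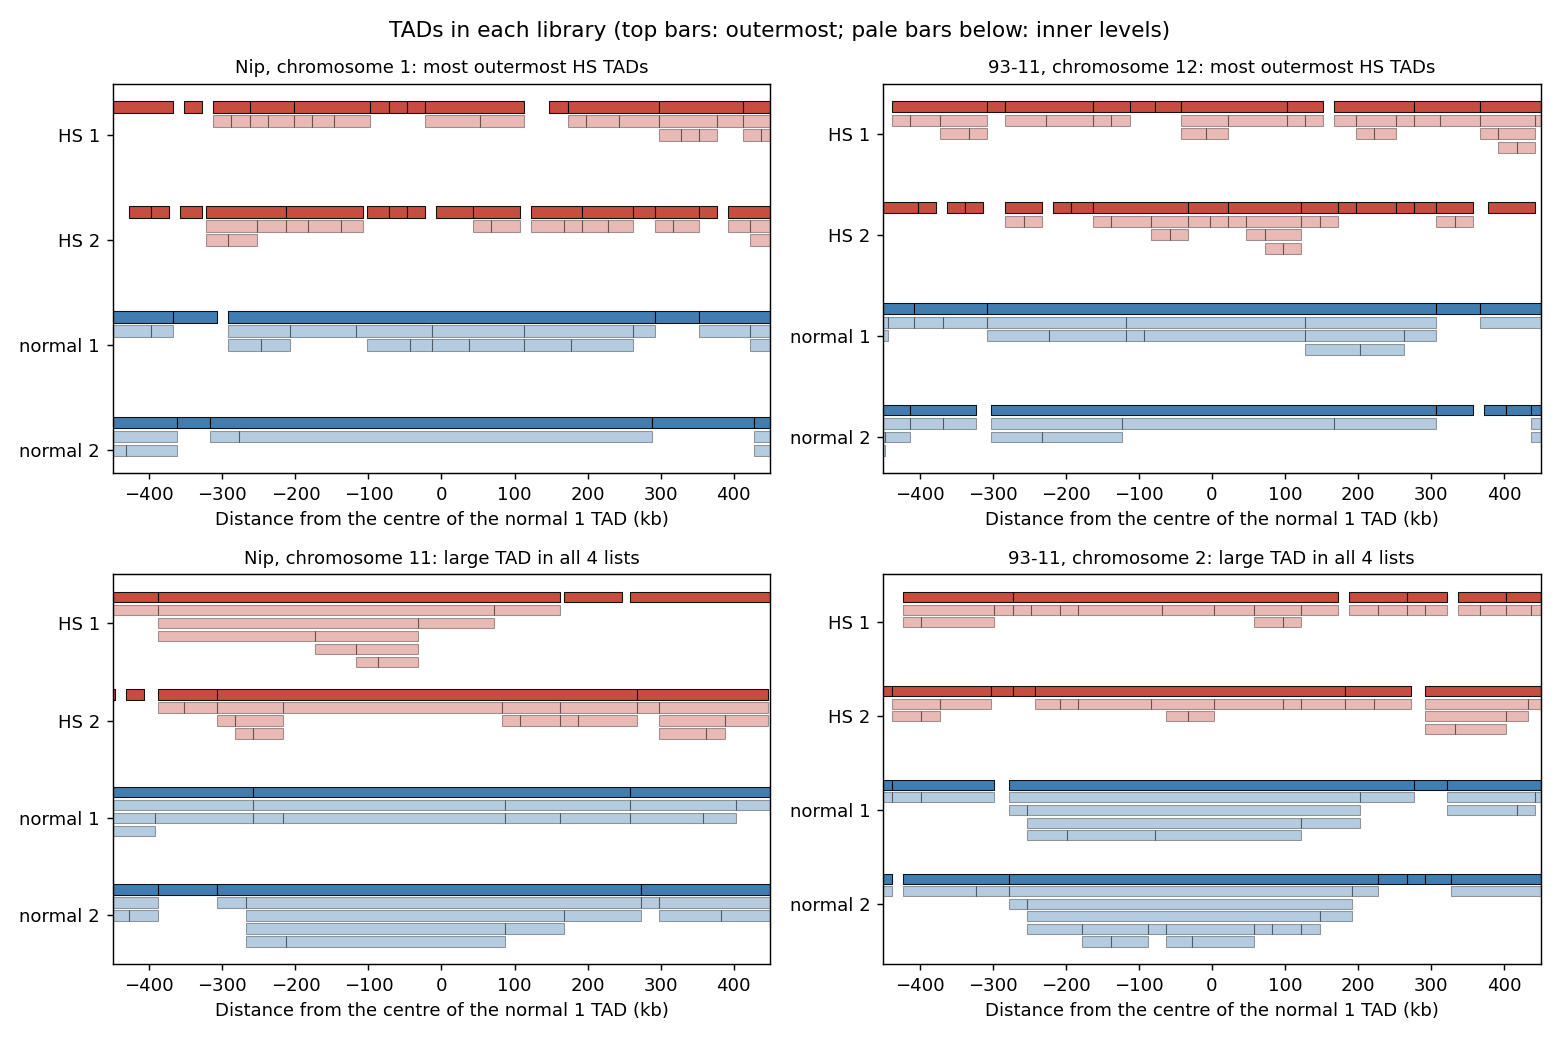
TADs in the 4 libraries of Nip (left) and 93-11 (right) around the matched large TAD with most outermost HS TADs (top) and the longest one present in all 4 lists (bottom); the horizontal axis is the distance in kb from the centre of the TAD in normal 1. Full-colour bars are outermost TADs and pale bars below them are inner levels; in the top panels 8 to 11 red outermost TADs stand where each normal list has a single long one.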

How the data were processed

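Hi-C was measured in 8 libraries from the aerial parts of rice seedlings, 2 biological replicates per group. The deposited compartment files give a PC1 score per 50-kb bin, with 3 decimals, and a gene count for the bin (annotation not given in the sources used here). The deposited lists of domains hold 2 positions and a nesting level per TAD on a 5-kb grid, made by the authors for each library separately. The submitters' processing notes name cutadapt 1.0, BWA and HiC-Pro 2.8.1, and the study's methods name Bowtie2. These methods also describe PC1 at a coarser resolution than the 50-kb bins of the files, so the tool behind the scores is not given in the sources used here. The caller described there gives domains without nesting, and the caller of these nested lists and the genome build are not given in the sources used here. Coordinates were kept as deposited, separately for each cultivar. No gene names or sequences are given, since the reference table at hand is of another assembly. The files hold no contact counts. Depth was not used here, it can change how many TADs are called, and its part in the results was not tested.

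Samples were grouped and numbered as in the labels. Members, lists and tests were chosen with earlier results of these data known. Bins belonged to a TAD by their midpoint. Libraries were compared with exact permutation tests over 36 relabellings within cultivars, and large TADs with other outermost TADs of the same library with exact sign-flip tests over 8 libraries, with Benjamini-Hochberg adjustment within each family. Both were two-sided. Values between lists and numbers of inner TADs are given without their p-values, since they draw on size and level. Regions were named by rank among the large TADs matched in both normal libraries of a cultivar, as the 5 longest, the 3 with most outermost HS TADs inside, the 3 highest and 3 lowest in PC1 and the 3 longest matched in both HS lists, plus the longest matched between HS libraries. The functions were tested on simulated data and returned the answers built in. Python 3.11.15 and numpy 2.4.6 were used. Alternatives were other size limits, overlaps, tolerances and scalings of PC1, pairing by replicate number and leaving out each library.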

Additional observations from a re-analysis of the deposited data

How the results depend on the processing

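Of the 208 recomputed values for 23 results, 172 were counted as unchanged. Where a test was run, they kept their direction and their side of 0.05. For values between lists and inner TADs, that side rests on p-values not given here. Elsewhere the limit was a ratio for numbers of large TADs, an SD between libraries, or for switches a counting interval over bins. The HS minus normal number of Nip, -365 at 250 kb or more against -287.5 at the main limit, was counted as unchanged. For the 5 quantities compared over 36 relabellings, the exact permutation test cannot fall below 0.05. Only a change of sign could take these out of the 172, so the count does not show that they were stable. It includes the B share difference at 400 kb or more, 5.44 points against 10.9 at the main limit. At 400 kb or more, the HS minus normal number of large TADs was -148 in Nip and -149 in 93-11. The share of the genome in large TADs differed by -38.4 points in Nip and -36.7 points in 93-11 at 250 kb or more, and by -19.9 and -19.0 points at 400 kb or more. The difference in inner TADs per 100 kb was -0.0062 at 400 kb or more, and -0.068 to 0.33 with a library left out, with the reversed sign without Nip HS replicate 2. Bins switched to B made up 0.496% and bins switched to A 0.396% in Nip at 400 kb or more. With a library left out, they were 1.33% to 1.77% and 1.37% to 2.03% in Nip, and 0.810% to 1.09% and 2.12% to 2.96% in 93-11, where a call needs fewer libraries. With each chromosome's median taken off, PC1 differed by -0.0043. Outer boundaries differed by -5.52 points at the same position and by -3.09 points within 10 kb. Against outermost TADs from 150 kb up to the limit, inner TADs per 100 kb differed by -0.34 with the limit at 400 kb. The B share differed by 5.44 points at 400 kb or more (exact permutation p = 0.78). Recovery of large TADs set against that class differed by -30.4 points at 50% reciprocal overlap. The cause of these changes was not tested.

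Without an HS library, recovery differed by -53.0 to -52.6 points, outermost TADs inside by 2.17 to 2.27, the share covered by the largest by -36.2 to -35.3 points, and recovery set against the smaller class by -25.2 to -22.9 points. Without a normal library these 4 have no value, since no other normal list is left. Pairing by replicate number, the replicate block, gave an exact p of 0.125 for the B share difference of 10.9 points, the smallest that 4 pairs allow, so it cannot make a call. Values between lists were not tested under the block. The numbers share no stated batch, and across bins the gap between replicates 1 and 2 in HS libraries correlated with that in normal libraries at r = 0.072 in Nip and -0.020 in 93-11, over 1967 and 2021 bins. Each group had 2 libraries and no depth was used, so small differences cannot be judged.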
